A study of Mus musculus with 2 samples.

Results

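The cells described here are macrophages that carry transcripts of Mrc1, the mannose receptor CD206, and Folr2, a folate receptor, from a mouse tendon injury on day 7. They were chosen from single-cell counts by a fixed gate on levels per cell, given as CP10K (UMIs of a gene per 10000 UMIs of the cell, where a UMI stands for 1 captured transcript). A barcode needed no fewer than 500 genes and 1000 UMIs, and no more than 10% of its UMIs from mitochondrial genes. The gate then asked for at least 20 CP10K of the myeloid genes Tyrobp, Fcer1g and Ctss together, under 100 of the neutrophil genes S100a8 and S100a9, at least 10 of the complement genes C1qa, C1qb and C1qc, at least 10 of Mrc1 and Folr2, under 10 of the wound macrophage genes Arg1 and Mmp12, and under 5 of the monocyte gene Ly6c2. It kept 613 control and 278 irradiated cells, 891 of 16430 filtered barcodes. The deposited matrices held 19671 barcodes in all.

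The series has 1 library per group, made with 10x Genomics 3′ v3 chemistry from unsorted cells of the tenotomy site. Control cells came from male C57BL/6 mice (C57BL/6J in the protocol text), aged 8 to 10 weeks, with a 30% dorsal burn and cutting of the left Achilles tendon. Irradiated cells came from mice of the same strain, sex, age and injury that were also given a single dose of 7 Gy through a 2 cm collimator facing the site. The labels describe arms irradiated on postoperative day 1 or day 3, with 10 mice each, and the series text names day 3 in wording that leaves the day unsure.

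This injury is a model of heterotopic ossification, in which bone forms in soft tissue, and the series asks how radiotherapy acts on it. How many mice were pooled in a library is not stated, so mouse, library and treatment cannot be told apart. No test or p-value is given: every interval below is a 95% interval that covers counting error alone, and how mice vary is unknown here. The levels of the 13 gate genes chose the cells and are given as description only.

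Tissue macrophages come from cells seeded before birth and from blood monocytes that settle later. Macrophages with Mrc1, Folr2, Lyve1 and Timd4 are a form found around vessels and in connective tissue, where they clear dying cells and debris, handle iron and release growth factors and chemokines such as CCL8. Monocytes that arrive after injury bring Ccr2, Ly6c2 and Plac8, and can take on resident-like genes with time.

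The control cells held a median of 8822 UMIs and 3011 genes (5620536 UMIs in all) and the irradiated cells 11034 UMIs and 3380 genes (3239939 UMIs in all). Median mitochondrial shares were 3.70% and 2.22%. The libraries shared 32 cell barcodes, of which 4 control and 1 irradiated barcode belonged to chosen cells. Scrublet gave a doublet score above 0.25 to 5 of 613 and 4 of 278 cells.

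The label fits the genes outside the gate in part. Ccl8, a chemokine of resident macrophages, stood at 2433 UMIs per 1000000 UMIs of the summed cells (CPM) in control and 3097 CPM in irradiated cells, against 341 and 200 CPM in C1q macrophages that passed all limits but fell under the Mrc1 and Folr2 minimum. In macrophages with at least 10 CP10K of Arg1 and Mmp12 it was at 46.0 and 61.4 CPM. The resident genes Cbr2 (99.8 and 117 CPM against 21.99 and 10.8) and Cd163 (57.1 and 135 against 1.23 and 3.40 CPM) had the same order. Lyve1, in contrast, had a UMI in 28 of the 613 control cells and 36 of the 278 irradiated cells, and Timd4 in 2 and 17. Lyve1 and Timd4 were thus seen in a minority of these cells, whose Mrc1, Folr2 and C1q levels were set by the gate.

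Among the gate genes, Mrc1 was at 2157 CPM in control and 1848 in irradiated cells and had a UMI in 100% and 98.6% of them. Folr2 was lower, at 159 and 425 CPM, with a UMI in 50.4% and 72.3% of cells. Thinned to 2000 UMIs per cell, Folr2 was seen in 21.5% and 45.5%, beside 0.0567% and 0% of keratinocytes, a class that should lack it (median depths 22791 and 25433 UMIs before thinning). C1qa was at 3133 and 4102 CPM, Ly6c2 at 6.58 and 25.9, and Arg1 at 27.9 and 45.7. In GRCm38 (GENCODE M21), Mrc1 lies at chr2:14229392-14332057 on the plus strand, Folr2 at chr7:101839988-101857194 on the minus strand, C1qa at chr4:136895917-136898803 on the minus strand and Ccl8 at chr11:82115185-82116799 on the plus strand.

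At the edge of the gate the cells formed a continuum. The lowest chosen cells had 10.0 and 10.1 CP10K of Mrc1 and Folr2, and the highest cells left out had 9.98 in both libraries. Between 10 and 15 CP10K lay 157 and 78 chosen cells, and between 5 and 10 CP10K lay 215 and 150 cells left out by this limit alone. The Ly6c2 limit alone left out 6 control and 46 irradiated cells, and the Arg1 and Mmp12 limit alone 10 and 30.

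The cells made up a smaller share of the irradiated library on every denominator taken. They were 6.63% of filtered control barcodes (6.14 to 7.16) and 3.87% of irradiated ones (3.43 to 4.34), 1.72-fold more in the control (1.49 to 1.97). Keratinocytes were 19.5% and 14.8% of barcodes, and without them the shares were 8.24% and 4.54%. Of myeloid barcodes under the neutrophil limit of S100a8 and S100a9 they were 25.6% (23.9 to 27.4) and 8.99% (8.00 to 10.0). Of the C1q barcodes among those, they were 49.9% and 19.4%, a log2 ratio of irradiated over control of -1.36 (-1.54 to -1.19).

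Other classes of myeloid cells had other ratios. C1q macrophages under the Mrc1 and Folr2 minimum were 44.0% and 46.2% of C1q barcodes, with a log2 ratio of 0.07 (-0.05 to 0.19). Arg1 or Mmp12 macrophages were 1.52% and 7.51% of all filtered barcodes, and Ly6c2 monocytes low in C1q 1.88% and 7.34%. Myeloid barcodes within the neutrophil limit were 25.9% and 43.0% of the libraries. Shares of a suspension cannot tell a loss of these cells from a gain of others, nor either from a difference in how cells came out of the tissue.

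**Figure D1:**
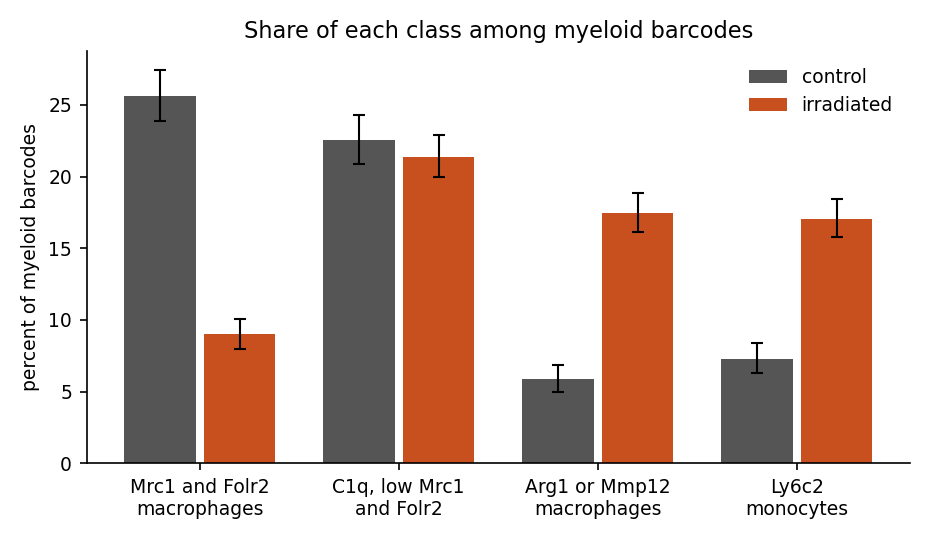
Percent of myeloid barcodes under the S100a8 and S100a9 limit (y axis) in 4 classes set by the same genes (x axis), in the control (grey) and irradiated (orange) library, with exact 95% binomial intervals. The Mrc1 and Folr2 macrophages are at 25.6% and 8.99%, and the Arg1 or Mmp12 macrophages at 5.85% and 17.5%.

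Differences in expression were read from UMIs summed over the chosen cells of a library. A gene was measured with at least 20 UMIs over both libraries, and called higher or lower when its CPM differed at least 1.5-fold and the interval of the ratio left out equality. Of 11421 measured genes outside the gate, 725 were called higher in the irradiated cells (6.35%) and 591 lower (5.17%), with a median log2 ratio of -0.03. Each list below is read against these shares.

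Interferon-stimulated genes were higher almost throughout the list. All 28 measured had a ratio above equality and 27 were called, with a median log2 ratio of 1.38. Only Irf9, a subunit of the factor that drives this response, missed the call, at 41.8 CPM in control and 54.3 CPM in irradiated cells. Irf7, which amplifies interferon production, was at 60.8 CPM in control and 269 CPM in irradiated cells, a log2 ratio of 2.15 (1.96 to 2.33). Isg15, a ubiquitin-like protein, was at 87.0 and 323 CPM, and Rsad2, the antiviral enzyme viperin, at 67.4 and 247 CPM. Each of these was more than 3 times as abundant in the irradiated cells.

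The steepest ratios of the list were those of low genes. Ifi44 had 28 and 139 UMIs, 4.98 and 42.9 CPM, and a log2 ratio of 3.11 (2.51 to 3.75). Ifi205, a DNA sensor of the Ifi200 family, stood at 10.5 and 58.3 CPM, and Oasl1, of the oligoadenylate synthetase family, at 14.8 and 81.5. Among abundant genes, Bst2, the membrane tether tetherin, was at 312 and 796 CPM, and Ifi27l2a at 256 and 953 CPM.

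The difference was seen in most cells. Summed per cell, the list had a median of 16.04 CP10K in control and 51.0 in irradiated cells, and 93.2% of irradiated cells lay above the control median. After thinning, an Irf7 UMI was found in 10.3% and 38.0% of cells (29.7% and 74.8% without thinning), beside 0.113% and 1.34% of keratinocytes. Other cells of the irradiated library carried more of these transcripts too: the list summed to 450 CPM in control and 1350 CPM in irradiated keratinocytes, against 2352 and 6281 CPM in the chosen cells. Of 28 measured, 27 were called higher in Arg1 or Mmp12 macrophages (median 1.71) and 28 in C1q macrophages low in Mrc1 and Folr2 (1.45). In Ly6c2 monocytes 24 of 28 were called higher (1.34).

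**Figure D2:**
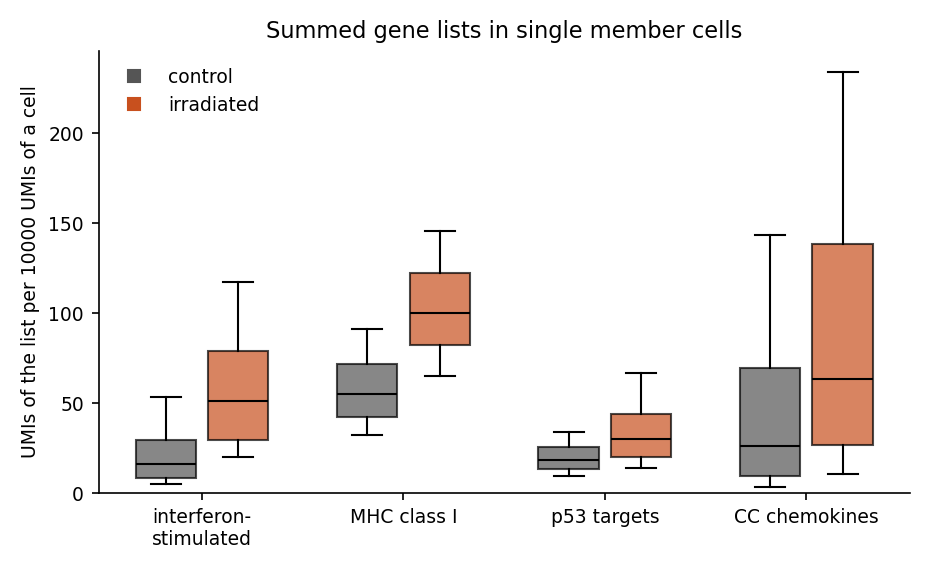
Summed UMIs of a gene list per 10000 UMIs of a cell (y axis) for 4 lists (x axis) in the chosen cells of the control (grey) and irradiated (orange) library. Boxes span the quartiles with the median as a line, and whiskers the 10th to 90th percentile of cells. The interferon-stimulated medians are 16.04 and 51.0, and the MHC class I medians 55.4 and 100.1.

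The promoters of these genes are shown for the element through which interferon acts, the interferon-stimulated response element. Its core was searched as GAAANNGAA on both strands of RefSeq promoter windows (GRCm38.p6, 250 bases before to 50 after each start). Windows were found for 22 of the 28 measured genes. The core stood in 15 of their 25 windows (60%), in 12 of 17 windows of interferon-gamma induced genes (70.6%) and in 1 of 25 windows of p53 targets (4%), against 8.56% of all 32851 windows. Capitals mark the core in the upstream stretches below, which end before the start of transcription, and a match on the opposite strand is printed as its reverse complement.
Isg15, chr4:156200851-156200921, minus strand: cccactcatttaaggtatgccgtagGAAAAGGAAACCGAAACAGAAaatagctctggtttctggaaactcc
Ifit3, chr19:34583349-34583460, plus strand: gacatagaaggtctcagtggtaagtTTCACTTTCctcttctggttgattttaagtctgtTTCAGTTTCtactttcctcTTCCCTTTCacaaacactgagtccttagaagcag
Oas3, chr5:120777695-120777759, minus strand: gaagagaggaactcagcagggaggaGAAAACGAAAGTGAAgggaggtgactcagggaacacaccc
Rsad2, chr12:26456538-26456596, minus strand: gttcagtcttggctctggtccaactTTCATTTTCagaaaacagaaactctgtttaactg
Isg15 and Ifit3 each have 3 matches, overlapping in Isg15 and apart in Ifit3, Oas3 has 2 that overlap, and Rsad2 has 1. The core of PU.1, the master factor of macrophages, was searched as GAGGAAGT and stood in none of these 25 windows, in 4 of 24 windows of resident genes (16.7%) and in 3.20% of all windows. Of Mrc1, Folr2, C1qa, C1qb and C1qc, 4 had windows, and these held a PU.1 core in C1qc and an interferon core in Folr2, 23 bases before its start and shown in capitals.
Folr2, chr7:101857191-101857238, minus strand: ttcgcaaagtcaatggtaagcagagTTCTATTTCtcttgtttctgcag
A match is a description of letters, not a binding site.

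Genes that answer mainly to interferon gamma followed. Of 19 measured, 14 were called higher and none lower, with a median log2 ratio of 1.14. Gbp6, a guanylate-binding protein, was at 2.67 and 22.8 CPM, Iigp1, an immunity-related GTPase, at 19.4 and 108 CPM, and Gbp2 at 28.5 and 86.7. The checkpoint ligand gene Cd274 stood at 49.6 and 110 CPM. Reads of the closely related Gbp and Iigp genes can be split between copies. In Arg1 or Mmp12 macrophages 12 of 17 of the list were called higher and 2 lower. In C1q macrophages low in Mrc1 and Folr2 15 of 19 were higher, and in Ly6c2 monocytes 17 of 19.

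MHC class I genes, which present peptides to CD8 T cells, were higher as a list: 11 of 16 measured were called higher and none lower, median 0.75. H2-K1 was at 1545 and 2955 CPM (log2 0.94, 0.89 to 0.98), and B2m, the light chain, at 2059 and 3635 CPM (log2 0.82, 0.78 to 0.86). Tap1, a subunit of the peptide transporter, stood at 47.5 and 90.4 CPM. H2-Q6 and H2-Q7 had the steepest ratios, 3.31 and 2.59, but are near-identical copies whose reads cannot be apportioned with certainty. Per cell, the class I sum had a median of 55.4 CP10K in control and 100.1 in irradiated cells. The other myeloid classes shared this. Of 16 measured, 13 were called higher in Arg1 or Mmp12 macrophages (median 1.07) and 13 in C1q macrophages low in Mrc1 and Folr2 (0.97). In Ly6c2 monocytes 10 of 16 were called higher (0.68).

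Class II genes, which present to CD4 T cells, were near level and differed from cell to cell within each library. None of 8 measured was called higher, and the 1 called lower, H2-DMb2, had 25 and 4 UMIs. Cd74, the invariant chain, was at 1941 and 2176 CPM, H2-Ab1 at 759 and 763, and H2-Aa at 1535 and 1354. Per cell, 61.5% of control and 56.8% of irradiated cells held under 8 CP10K of the list, while 27.9% and 31.7% held at least 32.

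**Figure D3:**
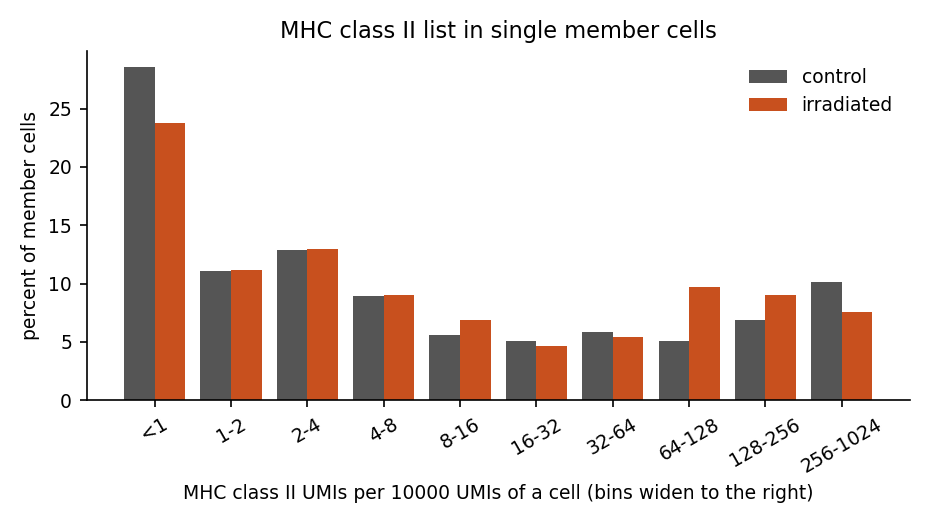
Percent of chosen cells (y axis) by their summed MHC class II UMIs per 10000 UMIs of the cell (x axis, bins that widen to the right) in the control (grey) and irradiated (orange) library. Both libraries hold cells in all 10 bins, with 28.5% and 23.7% in the lowest and 10.1% and 7.55% in the highest.

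Split at the pooled median of 4 class II genes (H2-Aa, H2-Ab1, H2-Eb1 and Cd74, 2.37 CP10K), 48.0% of control (43.9 to 52.0) and 54.7% of irradiated cells (48.6 to 60.6) were on the high side. The 3 monocyte and inflammatory genes given here were higher on that side. Ccr2, the receptor that brings monocytes to a site, was at 250 CPM in high and 45.3 in low control cells, and at 277 and 44.9 CPM in irradiated cells. Plac8 had log2 ratios of high over low of 1.70 and 2.23, and Il1b of 1.71 and 1.79.

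Other single genes were higher in the class II low cells. Hmox1, heme oxygenase, was at 2682 CPM in low and 898 CPM in high control cells, and at 1302 and 349 CPM in irradiated cells. Slc40a1, the iron exporter ferroportin, had log2 ratios of high over low of -2.03 and -2.44, and Spp1, osteopontin, of -1.50 and -2.32. Mrc1 itself hardly differed, with -0.03 and 0.14. Irf7 differed between the libraries on both sides of the split, with a log2 ratio of irradiated over control of 2.09 in the high and 2.18 in the low cells.

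Resident macrophage genes differed in both directions. Of 26 measured, 9 were called higher and 2 lower, with a median log2 ratio of 0.03. Of the genes of the list above 60 CPM in control cells, Stab1 alone was called. The transcription factor Maf was at 727 and 755 CPM, the selenium carrier Selenop at 2437 and 2040, the clotting factor subunit F13a1 at 667 and 589, and Gas6, a bridge to dying cells, at 440 and 416 CPM. Other abundant genes had lower values in the irradiated cells without reaching the call: the platelet chemokine Pf4 was at 3470 and 2532 CPM (log2 -0.45, -0.49 to -0.42), the endocytic adaptor Dab2 at 1110 and 855, Wwp1 at 398 and 305 and Igf1 at 302 and 210 (log2 -0.52). Stab1, a scavenger receptor, was called lower, at 416 and 265 CPM (log2 -0.65, -0.76 to -0.54). Ccl8 was 2433 and 3097 CPM, a log2 ratio of 0.35 (0.31 to 0.39) that did not reach the call.

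The genes called higher were sparse ones. Lyve1, a hyaluronan receptor, had 41 and 140 UMIs, 7.29 and 43.2 CPM, a log2 ratio of 2.57 (2.06 to 3.11). Cd163, the receptor for haemoglobin bound to haptoglobin, was at 57.1 and 135 CPM (1.24, 1.03 to 1.45), and Vsig4, a complement receptor, at 13.2 and 44.1 CPM. Timd4, a receptor for phosphatidylserine on dying cells, had 2 UMIs in control and 31 in irradiated cells, and Cd209f and Cd209g, lectins with close copies, had log2 ratios of 1.47 and 2.00.

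**Figure D4:**
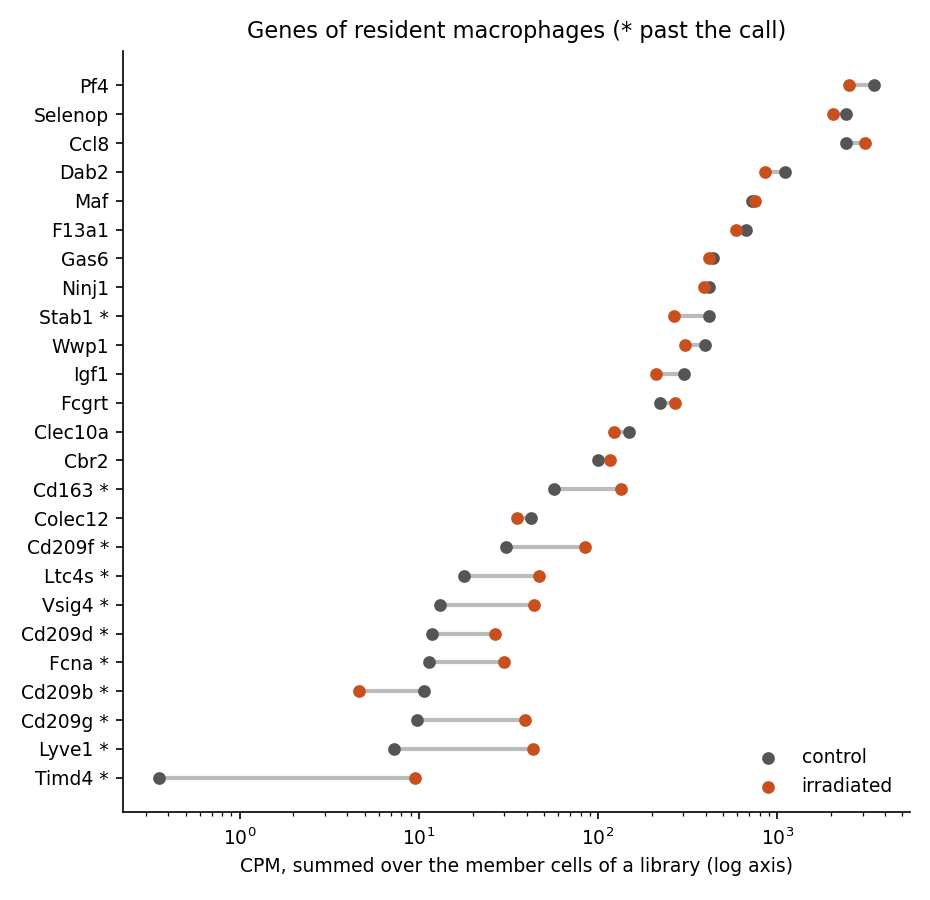
CPM summed over the chosen cells (x axis, log scale) for 25 of the 26 measured genes of resident macrophages (y axis, ordered by control level), control in grey and irradiated in orange. Asterisks mark the 11 genes past the call: 9 are higher in the irradiated cells, all of them below 60 CPM in control, and Stab1 and Cd209b are lower.

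The UMIs of these sparse genes sat in a minority of cells. Of cells thinned to 2000 UMIs, 64 of 590 in the control (10.8%, 8.45 to 13.6) and 58 of 266 in the irradiated library (21.8%, 17.0 to 27.3) had a UMI of Lyve1, Timd4, Vsig4, Cd163, Cd209d, Cd209f, Cd209g or Fcna, a 2.01-fold larger share (log2 1.01, 0.54 to 1.48). Without thinning the shares were 21.7% and 38.5%. These 8 genes were chosen after their values were seen, so their share is a description.

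Genes outside the 8 followed the same cells. Ccl8 was at 7318 CPM in control cells with such a UMI and 1830 CPM in those without, and at 7503 and 1942 CPM in irradiated cells. Within each kind, the log2 ratio of irradiated over control for Ccl8 was 0.04 and 0.09. F13a1 (1496 and 565 CPM in control, 1697 and 310 in irradiated cells), Cbr2 (242 and 81.7, then 287 and 72.0) and Ccl7 (1336 and 447, then 3111 and 1264) were also higher in the cells with a resident-gene UMI. Il1b was lower there, at 159 and 415 CPM in control and 93.5 and 653 CPM in irradiated cells, and so was Spp1, at 202 and 1214, then 192 and 1670.

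Compared with the C1q macrophages low in Mrc1 and Folr2, the chosen cells had ratios nearer to level for several resident genes. Igf1, a growth factor, had a log2 ratio of -0.52 here and -2.04 there, a difference of 1.52 (1.32 to 1.72). For Gas6 the ratios were -0.08 and -1.31 (difference 1.23, 1.05 to 1.41), for F13a1 -0.18 and -1.19 (1.01, 0.86 to 1.17), and for Ccl8 0.35 and -0.77 (1.12, 1.02 to 1.22). In Arg1 or Mmp12 macrophages F13a1 went the other way, at 474 and 998 CPM. These 3 classes are cut from the same continuum by Mrc1, Folr2, Arg1 and Mmp12. The chosen cells have a minimum of Mrc1 and Folr2 in both libraries, while the make-up of the low class differed. In that class 113 of 540 control and 221 of 662 irradiated cells had no UMI of either gene. The part of this cut in the ratios set against that class, here and below, was not tested.

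Monocyte genes pointed both ways. Of 19 measured, 5 were called higher and 3 lower, median 0.25. Plac8 was at 47.3 and 196 CPM (log2 2.05, 1.84 to 2.26) and had a UMI in 13.4% and 33.5% of cells (5.59% and 16.9% after thinning, beside 1.19% and 0.861% of keratinocytes). Ms4a4c was at 67.8 and 256 CPM. Ccr2 itself was not called, at 135 and 160 CPM, while S100a4, a calcium-binding protein, was lower at 327 and 190 CPM and Thbs1, thrombospondin, at 1037 and 589 CPM. Of 24 regulators of macrophage identity, 1 was called, Klf2, at 193 and 291 CPM, and Csf1r, the receptor for the survival factor CSF1, stood at 477 and 454 CPM.

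Targets of p53, the factor that halts the cell cycle after DNA damage, were called higher in 11 of 23 measured and lower in 1, with a median log2 ratio of 0.53. Cdkn1a, the cell cycle inhibitor p21, was at 355 and 935 CPM, a log2 ratio of 1.40 (1.32 to 1.48). Mdm2, which degrades p53, stood at 166 and 343 CPM, and Ccng1 at 35.6 and 94.1 CPM. Phlda3, which restrains AKT, was at 8.72 and 42.6 CPM, and Zmat3, an RNA-binding target, at 8.54 and 35.8. Bax, the death effector, was at 181 and 245 CPM and not called, and the repair genes Ddb2 and Xpc, with 44 and 15 and with 51 and 34 UMIs, were not called either.

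A p53 ratio was larger here than in the other macrophage classes for some targets, though not larger than in every class of cells. The Cdkn1a ratio exceeded that in Arg1 or Mmp12 macrophages by 0.50 (0.35 to 0.65) and in C1q macrophages low in Mrc1 and Folr2 by 0.46 (0.34 to 0.57) on the log2 scale. For Ccng1 these differences were 1.31 (0.81 to 1.82) and 0.77 (0.41 to 1.13), and for Gdf15, a stress cytokine at 231 and 398 CPM here, 0.94 (0.62 to 1.26) and 0.22 (0.06 to 0.38). Irf7 ran opposite to these against the Arg1 or Mmp12 macrophages, with a difference of -1.33 (-1.87 to -0.78), and did not differ beyond counting error from the C1q macrophages low in Mrc1 and Folr2, at 0.04 (-0.20 to 0.29). In Ly6c2 monocytes Gdf15 was called higher, at 0.841 and 27.5 CPM, while Cdkn1a and Ccng1 were not called. Keratinocytes had log2 ratios of 1.38 for Cdkn1a and 1.48 for Ccng1.

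**Figure D5:**
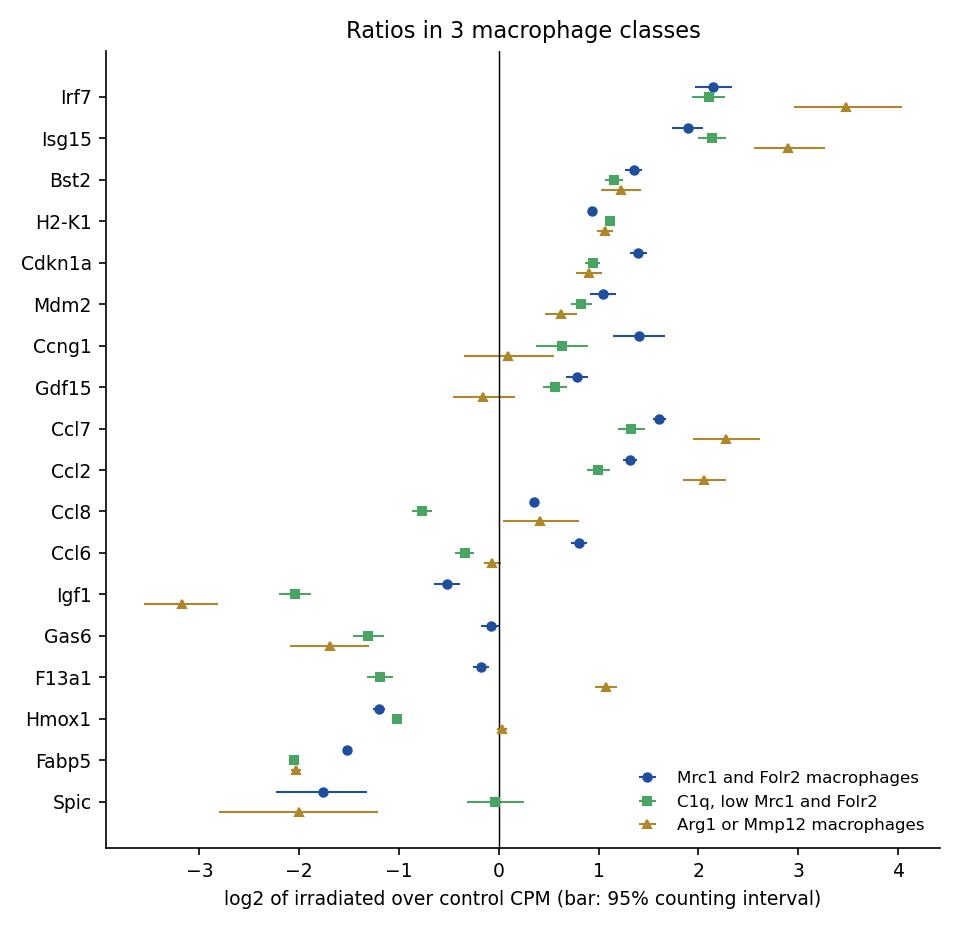
Log2 ratio of irradiated over control CPM (x axis, bars are 95% counting intervals) for 18 genes (y axis) in the Mrc1 and Folr2 macrophages (blue circles), the C1q macrophages low in both (green squares) and the Arg1 or Mmp12 macrophages (brown triangles). Gas6 and Igf1 lie nearer to 0 in the Mrc1 and Folr2 macrophages, at -0.08 and -0.52. The classes are cut by gate genes, and the part of that cut in the ratios was not tested.

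Mitosis transcripts were lower. None of 18 measured was called higher and 8 were called lower, with a median log2 ratio of -0.83. Mki67 had 160 and 61 UMIs, 28.5 and 18.8 CPM, and Ube2c, of the anaphase machinery, 19.4 and 5.86 CPM. How many cells carried them depended on the count asked for. After thinning to 2000 UMIs, 27.3% of control and 18.8% of irradiated cells had at least 1 UMI of the list, a log2 ratio of -0.54 (-0.95 to -0.13). At least 2 UMIs were found in 32 of 590 (5.42%) and 9 of 266 cells (3.38%), -0.68 (-1.73 to 0.37), or, after thinning to 5000 UMIs, in 17.4% and 10.4%, -0.74 (-1.35 to -0.13). At least 3 UMIs after thinning to 2000 were found in 9 of 590 and 2 of 266 cells, -1.02 (-3.22 to 1.18). Without thinning the shares with at least 2 UMIs were 33.4% and 30.9%, -0.11 (-0.41 to 0.19). The interval thus left out equality for at least 1 UMI and after thinning to 5000 UMIs, and held it in the other counts. Of 18 DNA synthesis genes none was called in either direction.

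Chemokines of the CC family, which draw monocytes and T cells, were called higher in 7 of 10 measured, median 0.90. Ccl7 was at 540 and 1644 CPM (log2 1.61, 1.54 to 1.67), Ccl2 at 478 and 1188, Ccl4 at 493 and 1325, and Ccl5, which draws lymphocytes, at 12.5 and 59.6 CPM. Most of this was shared: Ccl2, Ccl3, Ccl4, Ccl5, Ccl7 and Ccl12 were also called higher in each of the other myeloid classes. The list median there was 2.17 in Arg1 or Mmp12 macrophages, 1.14 in C1q macrophages low in Mrc1 and Folr2 and 1.26 in Ly6c2 monocytes. Ccl6 was an exception, at 481 and 840 CPM here. Its ratio was -0.34 in the C1q macrophages low in Mrc1 and Folr2 (difference 1.15, 1.03 to 1.27) and -0.06 in the Arg1 or Mmp12 macrophages (difference 0.87, 0.75 to 0.98). Keratinocytes held little Ccl7 and in the opposite order, 26.5 and 12.6 CPM.

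Other secreted and surface genes followed in smaller numbers. Inflammatory mediators were called higher in 7 of 22, among them the neutrophil attractant Cxcl2 at 1091 and 1806 CPM and Tnf at 170 and 277, and none was lower. Their median log2 ratio was 0.46. In the other classes more were called higher. These were 20 of 23 in Arg1 or Mmp12 macrophages (median 1.33), 15 of 24 in C1q macrophages low in Mrc1 and Folr2 (0.71) and 13 of 23 in Ly6c2 monocytes (0.62). Complement genes were called higher in 6 of 17 and lower in 1. Cfb, factor B of the alternative pathway, was at 33.8 and 177 CPM (log2 2.39, 2.15 to 2.64), and C4b at 40.9 and 125. Clu, the gene called lower, had 92.7% of its control UMIs in 1 cell. The Fc receptor genes Fcgr1 and Fcgr4 were 171 and 326 CPM and 107 and 228 CPM. Cfb, Fcgr1 and Fcgr4 were called higher in each of the other myeloid classes too.

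Growth factor genes were called higher in 4 of 23 and lower in 1. Bmp2, a bone-inducing ligand, had 45 and 93 UMIs, 8.01 and 28.7 CPM, in 26 control and 33 irradiated cells, a log2 ratio of 1.84 (1.31 to 2.39). In C1q macrophages low in Mrc1 and Folr2 Bmp2 was sparse, at 2.99 and 2.01 CPM, and its ratio of -0.57 was not called. Keratinocytes held 10.2 and 22.1 CPM of Bmp2, a log2 ratio of 1.12. The EGF receptor ligand Hbegf was at 39.0 and 63.9 CPM. Nrg1, a neuregulin outside the lists, was among the 12 lowest ratios of called genes with at least 20 CPM in a library. It was at 449 and 128 CPM (log2 -1.81, -1.96 to -1.66), with a UMI in 296 control and 71 irradiated cells. Its ratio differed from that in Arg1 or Mmp12 macrophages by -2.46 (-2.80 to -2.12), and keratinocytes held 365 and 417 CPM of Nrg1.

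Iron and heme genes were more often lower, with 5 of 19 called lower and 1 higher and a median of -0.37. Hmox1, which breaks heme open, was at 1900 and 827 CPM (log2 -1.20, -1.26 to -1.14), and Slc40a1 at 85.2 and 46.0 CPM. Spic, a transcription factor of iron-recycling macrophages, had 289 and 49 UMIs, 51.4 and 15.1 CPM (-1.77, -2.23 to -1.32). Spic was also called lower in Arg1 or Mmp12 macrophages, at 19.5 and 4.86 CPM. Its ratio was -0.03 in C1q macrophages low in Mrc1 and Folr2, and Ly6c2 monocytes had it called higher, at 0 and 7.90 CPM. Hmox1 and Slc40a1 were called lower in the C1q macrophages low in Mrc1 and Folr2 too, but not in the other myeloid classes. The gene called higher in the chosen cells was Cd163. Ferritin genes were not called, with Fth1 at 15764 and 11855 CPM. Red cell transcripts moved the other way over the same cells: the 5-gene list summed to 13.3 and 296 CPM and had a UMI in 10.6% and 26.6% of cells, with Alas2 at 0 in the irradiated cells, and its part in the iron genes was not tested. The 4 globin genes hold the 4 highest ratios of called genes with at least 20 CPM in a library. However, 1 irradiated cell held 56.7% of the Hbb-bs UMIs. At a minimum of 5 CP10K of Mrc1 and Folr2, Hbb-bs and Hbb-bt turned direction (log2 -0.47 and -0.74) and Hba-a1 and Hba-a2 stood at 0.38 and 0.31.

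Lipid and lysosome genes were called in 6 of 27, 3 each way. Apoe, the cholesterol carrier, was at 13962 and 16832 CPM and Trem2, a lipid receptor, at 471 and 569, both uncalled. The fatty acid binding proteins Fabp5 (4041 and 1413 CPM, log2 -1.52) and Fabp4 (69.0 and 32.1 CPM) were lower. Keratinocytes hold far more Fabp5, 18336 and 7050 CPM, a log2 ratio of -1.38, and the part of their free RNA in the value here was not tested. Ctsk was called higher, but 1 irradiated cell held 69.9% of its UMIs, and without the top cell of each library its ratio was 0.021.

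Efferocytosis genes, for eating dying cells, were called higher in 4 of 17 and lower in 1. The receptor Mertk was at 232 and 226 CPM, and its relative Axl at 41.3 and 73.8 CPM. Of 15 genes of alternative activation, 1 was higher and 2 lower: Mgl2 had 76 and 16 UMIs and Ear2, which has close copies, 23 and 0. Immediate early genes were called higher in 5 of 20, such as Egr2 at 55.3 and 123 CPM, with Hspa1b lower at 120 and 47.5. Matrix remodelling genes were called higher in 5 of 20 and lower in 1, but Lox turned direction in 6 of the alternative settings (-0.90 without high Scrublet scores) and Mmp13 in the gate set after thinning (-0.51). Of 20 glycolysis genes none was called higher and 2 were lower.

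Of genes outside the lists, Ephx1, a detoxifying hydrolase, had 20 and 113 UMIs in 18 and 60 cells, a log2 ratio of 3.29 (2.60 to 4.06). Its level was 3.56 and 34.9 CPM, below the 14.8 and 51.0 CPM of keratinocytes. Cp, ceruloplasmin, an iron oxidase, was at 10.5 and 67.6 CPM (2.69, 2.27 to 3.13), 1.73 above its ratio in C1q macrophages low in Mrc1 and Folr2 (0.98 to 2.48). Slfn4, an interferon-inducible gene, stood at 5.16 and 40.4 CPM. At the low end were Tmtc2 at 57.1 and 16.7 CPM and the non-coding RNA H19 at 29.4 and 5.56, beside 53.003 and 5.29 CPM of H19 in keratinocytes.

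Several of the extreme ratios rested on single cells or on other lineages. A single cell held 87.7% of irradiated Cilp and 92.7% of irradiated Robo2 UMIs, and 60.3% of control Sfrp2, 79.4% of Prg4, 83.3% of Comp, 68.8% of Igfbp5 and 76.8% of Abi3bp UMIs, all genes of connective tissue or nerve. Krt6a, Krt6b and Krt16, keratins of wounded skin, were spread over 197, 135 and 271 control cells and had ratios of -1.95, -2.68 and -2.11.

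Markers of other lineages were present at low levels. All 7 keratinocyte markers had UMIs in both libraries, with a sum of 687 CPM in control and 574 CPM in irradiated cells and medians per cell of 4.71 and 0.911 CP10K. All 7 fibroblast markers did too, at 1055 and 1457 CPM and medians of 5.12 and 1.39. The 7 neutrophil markers other than the gate genes summed to 78.1 and 107 CPM (Ngp at 0 in both, Camp and Ltf in irradiated cells), 7 osteoclast markers to 106 and 161 (Calcr at 0 in irradiated cells), 7 dendritic markers to 17.4 and 13.9 (Xcr1 at 0 in both, Clec9a and Cd207 in irradiated cells) and 7 T and NK cell markers to 8.01 and 4.32, with Cd3e, Cd3d, Cd3g and Klrb1c at 0 in irradiated cells. The medians of keratinocyte and fibroblast markers were thus higher in control cells, and their part in the genes called lower was not tested.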

How the data were processed

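The authors deposited raw UMI counts per gene and barcode for 2 libraries (32285 genes in both). Reads were processed with Cell Ranger 5 against mm10, per the submitters' processing notes, and version 5.0.1 is named per the file headers. No filter or normalisation of the counts by the authors is given in the sources used here. From these counts, cells were gated, UMIs summed and ratios computed with Python 3.11.15, numpy 2.4.6, scipy 1.17.1 and pandas 2.3.3, after the ratio was tested on simulated data. Shares have exact Clopper-Pearson intervals, ratios of shares an interval on the log scale, and ratios of summed counts an exact conditional Poisson interval. Doublets were scored with Scrublet in scanpy 1.11.5 and kept.

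Comparison classes were set by the gate genes among myeloid barcodes: at least 10 CP10K of Arg1 and Mmp12; C1q cells under 10 CP10K of Mrc1 and Folr2; and at least 5 CP10K of Ly6c2 with under 10 of C1q. Keratinocytes had at least 20 CP10K of Krt5 and Krt14 and under 2 of the myeloid genes. Members of 32 gene lists were counted. Of each list the text names up to 4 called genes of at least 10 CPM with the largest ratios, beside defining genes, and of all genes the 12 highest and 12 lowest called ones of at least 20 CPM. The cells, lists and rules were chosen with earlier results of these data known. Mx1 and Mx2 were not analysed here, nor was Aldoa, whose symbol stands on 2 gene IDs. A gene of the resident list is counted with it but not reported here. Gene positions are from GENCODE M21. The libraries held 180080740 and 111753092 UMIs.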

Additional observations from a re-analysis of the deposited data

How the results depend on the processing

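The main values were recomputed with other settings of the gate, depth, doublets and weights. Of these, 232 stayed within the counting interval or within 1.5 times, and 21 did not. Part of this was set in advance. A minimum of 2 UMIs of Mrc1 and Folr2 and of C1q kept the same 613 and 278 cells. The 2-fold rule and the 100 UMI minimum left the ratios of measured genes as they were. Centring on the median of all genes moved each ratio alike, by 0.03. The remaining values were the ratios of the 176 single genes followed and the counts of called genes in the other lists. Of these, 3093 stayed, 536 shifted beyond the interval or beyond 1.5 times, and 24 gene ratios turned direction. The shifts included 80 of 162 genes at a minimum of 20 CP10K and 92 of 140 in cells with a resident-gene UMI. All shares kept their direction. The log2 ratio of the share of C1q barcodes was -1.18 at a minimum of 5 CP10K of Mrc1 and Folr2, and that of the share of all barcodes was -1.33 without barcodes rich in collagen, keratin or S100a8 and S100a9, which also empties the denominator. Counts of called genes were 946 lower with each cell weighted alike, 446 higher and 321 lower with a minimum of 100 UMIs, and 389 and 284 with a 2-fold rule. At 2-fold, 5 MHC class I and 4 CC chemokine genes were higher. The resident list had 1 gene lower with at most 5% mitochondrial UMIs, with 100 UMIs and at 2-fold, and p53 targets had 0 or 2 lower in 7 settings. Cells without a resident-gene UMI had 3 resident genes higher and 6 lower, and 0 p53 targets lower. This alternative was added after seeing the data, like those for Folr2 and red cell UMIs. It removes cells by 8 resident genes that were themselves called higher, so its resident counts are set in part by the choice. Of the 26 resident genes, 20 were then measured.

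Some called genes turned. At 20 CP10K, Chil3 was 0.20, Igfbp5 0.089 and Lox -0.69. At 5 CP10K, Ctsk was -0.22, Hbb-bs -0.47, Hbb-bt -0.74, Lox -0.45 and Lyz1 -0.070. With at most 5% mitochondrial UMIs, Cd209b was 0.26 and Ctsk -0.042. Gated after thinning, Chil3 was 0.25, Lox -0.56 and Mmp13 -0.51. Without high Scrublet scores Lox was -0.90 and Robo2 -3.56. Lox was -0.81 without the collagen, keratin and S100 barcodes and -0.046 with cells weighted alike. In cells with a Folr2 UMI, Abi3bp was 1.42, Chil3 0.061, Igfbp5 0.36 and Robo2 -1.34. Rgs1 was -0.29 in cells with a resident-gene UMI, and Ctsk -0.044 and Pros1 -0.051 in cells without. The cause was not tested. No paired analysis was possible because each group has 1 library.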
